A study of Bos taurus with 6 samples.

Results

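The genes of the mitochondrial ribosomal proteins were described in the ribeye muscle, the longissimus thoracis (LT), of Hanwoo steers, the Korean cattle breed, with a high or a low number of fine marbling particles (NFMP). The members were the gene symbols that start with MRPL or MRPS followed by a digit, and 78 of the 23015 rows of the deposited count tables met that rule. All 78 were listed once and all 78 passed the filter on low counts. The high-NFMP group held steers 3-8, 10-8 and 10-9, aged 32.5, 33.8 and 34.5 months, and the low-NFMP group held steers 3-1, 3-3 and 10-16, aged 37.8, 33.7 and 35.4 months. All 6 were steers of 1 breed, raised conventionally on commercial feed, and each gave 1 library of LT RNA. Values are given in this order of steers throughout. The steers were chosen for their NFMP by image analysis of the ribeye, and the carcass traits were not analysed here. Priming from the poly(A) tail places the reads near the 3′ end, so counts were not divided by transcript length. A library held between 16283873 and 17192750 counts.

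The mitochondrial ribosome sits in the mitochondrial matrix and translates the few proteins that the mitochondrial genome encodes, all of them subunits of the respiratory chain or of ATP synthase. Its RNA comes from the mitochondrial genome, but all of its proteins are encoded in the nucleus, made by cytosolic ribosomes and imported. The large subunit forms the peptide bonds and the small subunit binds mRNA and decodes it. Some of the proteins have counterparts in bacterial ribosomes and others are found only in mitochondria. In muscle, which depends on oxidative phosphorylation, inherited defects in several of these proteins cause loss of respiratory chain activity.

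The symbols do not fully follow the structure. MRPS30 and MRPS18A carry small subunit names but lie in the large subunit of the mammalian mitochondrial ribosome, and they were counted there, which gave 51 large and 27 small subunit members. MRPS36 lies in the small subunit list by its name, although its product is now known as a part of the 2-oxoglutarate dehydrogenase complex of the citric acid cycle. By homology, 48 members were of a bacterial type and 30 were specific to mitochondria.

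The members were moderately expressed. Levels are given as normalized counts, which are counts scaled for library size and composition, per gene and not per length. The mean over the 6 steers had a median of 388.8 over the 78 members, and 71.8% of all tested genes had a mean below that value. The 4 most abundant members were MRPL35, MRPL53, MRPL55 and MRPS16. MRPL35, a protein of the large subunit with a bacterial counterpart, had 2181, 1981 and 1879.5 normalized counts in the high-NFMP steers and 2043, 1410.3 and 1974 in the low-NFMP steers. MRPL53, which is specific to mitochondria, had 1379, 2060.3 and 1710.0 against 1699, 1631 and 1796. These ranges overlapped each other, so the order of MRPL35 and MRPL53 was not separated from the spread between steers. MRPS16, the most abundant member of the small subunit, had 873.5, 1081 and 933 normalized counts against 1218, 948.5 and 1173, and MRPS27, a pentatricopeptide repeat protein of the same subunit, lay between 827 and 1081.

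Both subunits had similar levels per gene. The median of the mean normalized counts was 381.8 over the 51 large subunit members and 395.7 over the 27 small subunit members, and the middle of the distribution ran from 219.6 to 656.5 (quartiles) in the large and from 260.0 to 563.2 in the small subunit. The large subunit reached both ends of the range, from 23.7 for MRPL44 to 1911 for MRPL35, whereas the small subunit ran from 128.4 for MRPS24 to 1038 for MRPS16. The 5 most abundant members held 27.5% of the large subunit counts and 34.3% of those of the small subunit. Bacterial-type and mitochondria-specific members had medians of 380.9 and 401.6. These are descriptions of genes, which are not replicates, and no test was made between the subunits.

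**Figure D1:**
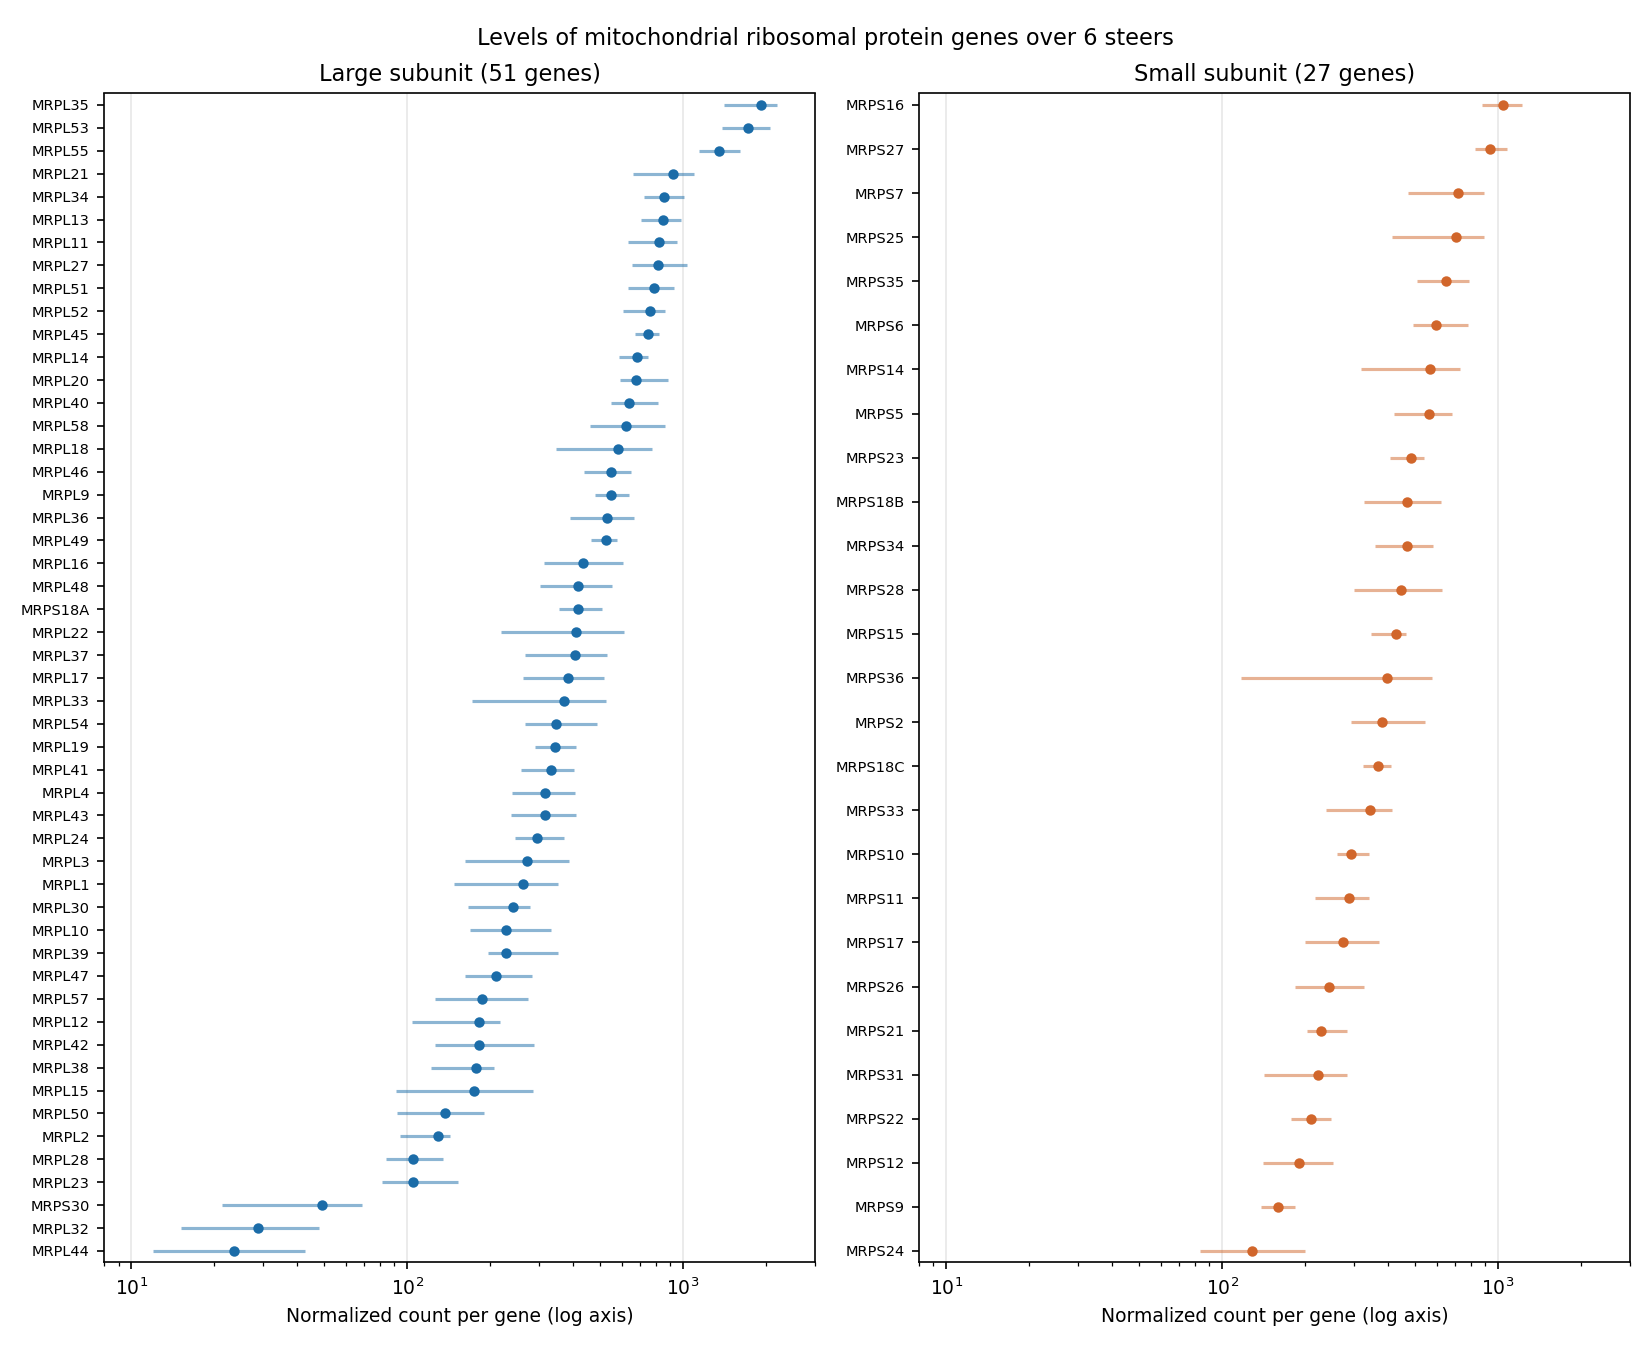
Mean normalized count of each member over 6 steers (point) with the lowest and highest steer (line), on a log axis, for 51 large and 27 small subunit genes. MRPL35, MRPL53, MRPL55 and MRPS16 are the 4 highest, and MRPL44, MRPL32 and MRPS30 are the 3 members below 100.

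The 3 members with means below 100 were all of the large subunit. MRPL44, whose protein resembles ribonuclease III, had raw counts of 14, 33 and 12 at high NFMP and of 16, 46 and 21 at low NFMP. MRPL32, a bacterial-type protein that is cut by a mitochondrial protease before assembly, had 15, 42 and 18 against 21, 52 and 25. In both genes steers 10-8 and 3-3, from different groups, had the most counts. MRPS30 had raw counts of 21, 62 and 42 against 60, 58 and 52. Whether reads from the 3′ ends of these transcripts fell outside the annotated genes was not tested, and a count this low carries a large counting error.

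MRPS18 exists as 3 related genes whose products sit at different places. MRPS18C replaces the bacterial protein S18 in the small subunit, MRPS18B is another small subunit protein and MRPS18A belongs to the large subunit. Their mean levels were close, at 416 normalized counts for MRPS18A, 468 for MRPS18B and 366 for MRPS18C. MRPS18C varied least, at 362 ± 40.3 normalized counts for high and 370.0 ± 35.6 for low NFMP (SD, n = 3 each). MRPS18B had 473 ± 147 against 463 ± 113. The high minus low log2 fold changes were 0.13 for MRPS18A, 0.03 for MRPS18B and -0.03 for MRPS18C, each smaller than its standard error of 0.20, 0.25 and 0.19, and none of the 3 passed the test.

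The summed level of the large subunit did not separate the groups. Steers 3-8, 10-8 and 10-9 of the high-NFMP group had sums of 21322, 26231 and 25703 normalized counts, and steers 3-1, 3-3 and 10-16 of the low-NFMP group had 24720.1, 24004 and 25452. The small subunit summed to 9743, 12451 and 11699 against 11981, 11713 and 13092. Steer 3-8 had the lowest sum of both subunits. As CPM, counts scaled to a common library total, the members reached 1883, 2106 and 2220.0 in the high-NFMP steers and 2233, 2299 and 2220.6 in the low-NFMP steers, so that steers 10-9 and 10-16 were nearly equal.

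The ratio of large to small subunit counts was 2.19, 2.11 and 2.20 in the high-NFMP steers and 2.06, 2.05 and 1.94 in the low-NFMP steers, with means of 2.16 ± 0.050 and 2.02 ± 0.065 (SD, n = 3). The groups did not overlap, and the difference was 0.10 on the log2 scale. No p is given, because the members were chosen with earlier results known. Without MRPS36 the ratio was 2.25, 2.17 and 2.22 against 2.15, 2.15 and 2.03 and the log2 difference was 0.07, and the groups still did not overlap. With the median over members in place of the sum, the difference was similar, at 0.10 on the log2 scale, but the groups overlapped, from -0.10 to 0.24 (log2, large minus small) in the high-NFMP and from -0.24 to 0.05 in the low-NFMP steers.

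**Figure D2:**
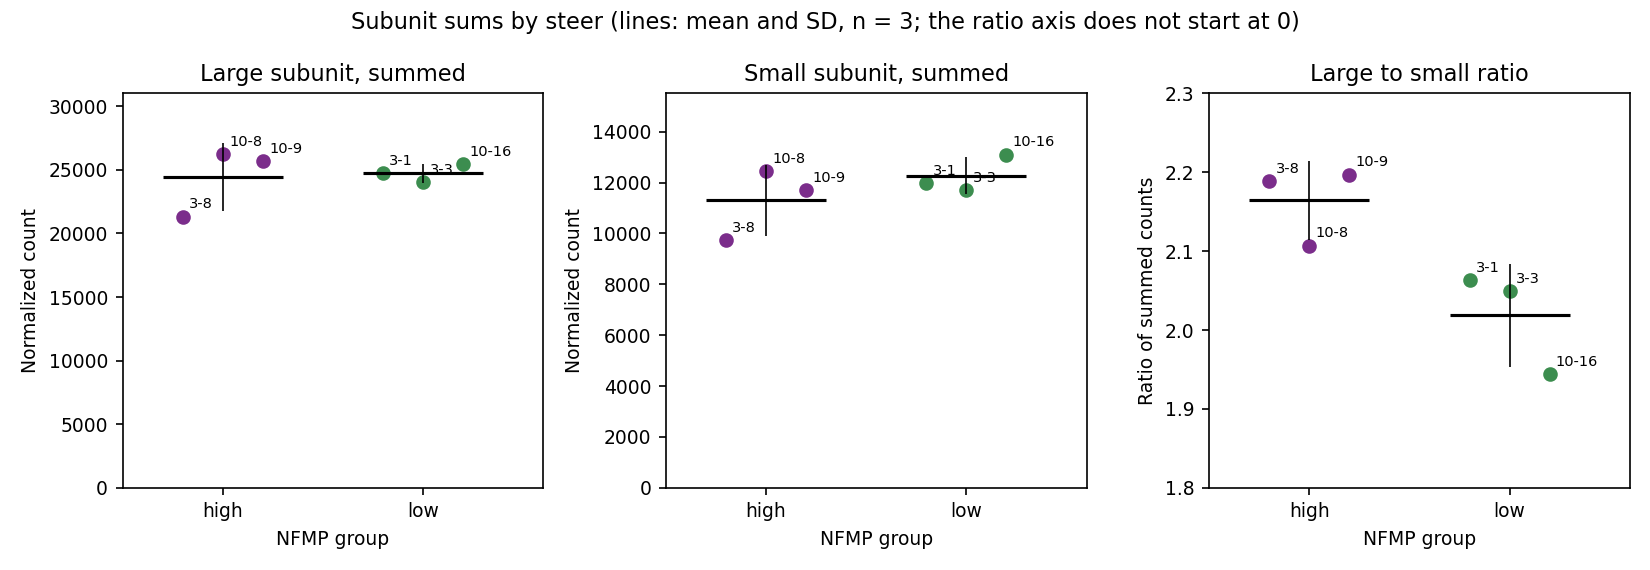
Summed normalized counts of the large and the small subunit and the ratio of the 2 sums, by steer, with the group mean and SD (n = 3). The sums overlap between the groups and steer 3-8 is lowest in both, whereas the ratio lies between 2.11 and 2.20 in the high-NFMP and between 1.94 and 2.06 in the low-NFMP steers.

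High against low NFMP, 3 steers each, asks which genes differ between steers chosen for many or few fine marbling particles. By the paper, the sequenced high-NFMP steers also had a higher marbling score and a larger rib eye area. These traits cannot be told apart from NFMP here. In bulk RNA of a muscle that holds several cell types, fewer cells of a type and less RNA per cell cannot be told apart. In the quasi-likelihood test of edgeR over 15039 genes, 8 of the 78 members had an unadjusted p below 0.05 and all 8 were lower in the high-NFMP group, which is 10.3% of the members, beside 5.74% of all tested genes. None was higher, beside 5.73% of all tested genes. With the study's threshold, which adds a fold change above 2, only MRPS36 was left, 1 of 78, beside 1.36% of all tested genes that were lower by that rule. That count was 0 without steer 10-9 and 2 without steer 3-8 or 3-3, with age as a term, with library totals alone and without a filter. No member had a Benjamini-Hochberg adjusted p below 0.05, which 0.685% of all tested genes had. DESeq2, run as an alternative, gave 2 of the 78 members at that adjusted p, MRPL33 and MRPS36, beside 287 of all 15039 tested genes. The groups did not overlap for 13 members that were lower (16.7%, beside 9.16% of all tested genes) and for 1 that was higher, MRPL28 (1.28%, beside 7.97%). With 3 steers a side, the smallest p of an exact permutation test is 0.1, so a single gene rests on the spread that edgeR shares across genes.

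The median log2 fold change was near 0 in both subunits, at 0.01 for the large and -0.05 for the small, beside 0.02 for all tested genes. Of the large subunit members 5 of 51 and of the small subunit members 3 of 27 were lower at that unadjusted p. These are 9.8% and 11.1%, beside 5.74% of all tested genes, and MRPS36 was among those of the small subunit. Below 0 lay 24 of the 51 large and 18 of the 27 small subunit members, or 47.1% and 66.7%, beside 48.1% of all tested genes. Of the bacterial type 6 of 48 and of the mitochondria-specific members 2 of 30 were lower (12.5% and 6.67%, beside the same 5.74%). MRPS36 was among the mitochondria-specific ones. The median log2 fold changes were -0.04 for the bacterial type and 0.01 for the mitochondria-specific members. The log2 fold changes ran from -1.13 (MRPS36) to 0.46 (MRPL28). Whether the subunits or the types differed from each other was not tested.

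**Figure D3:**
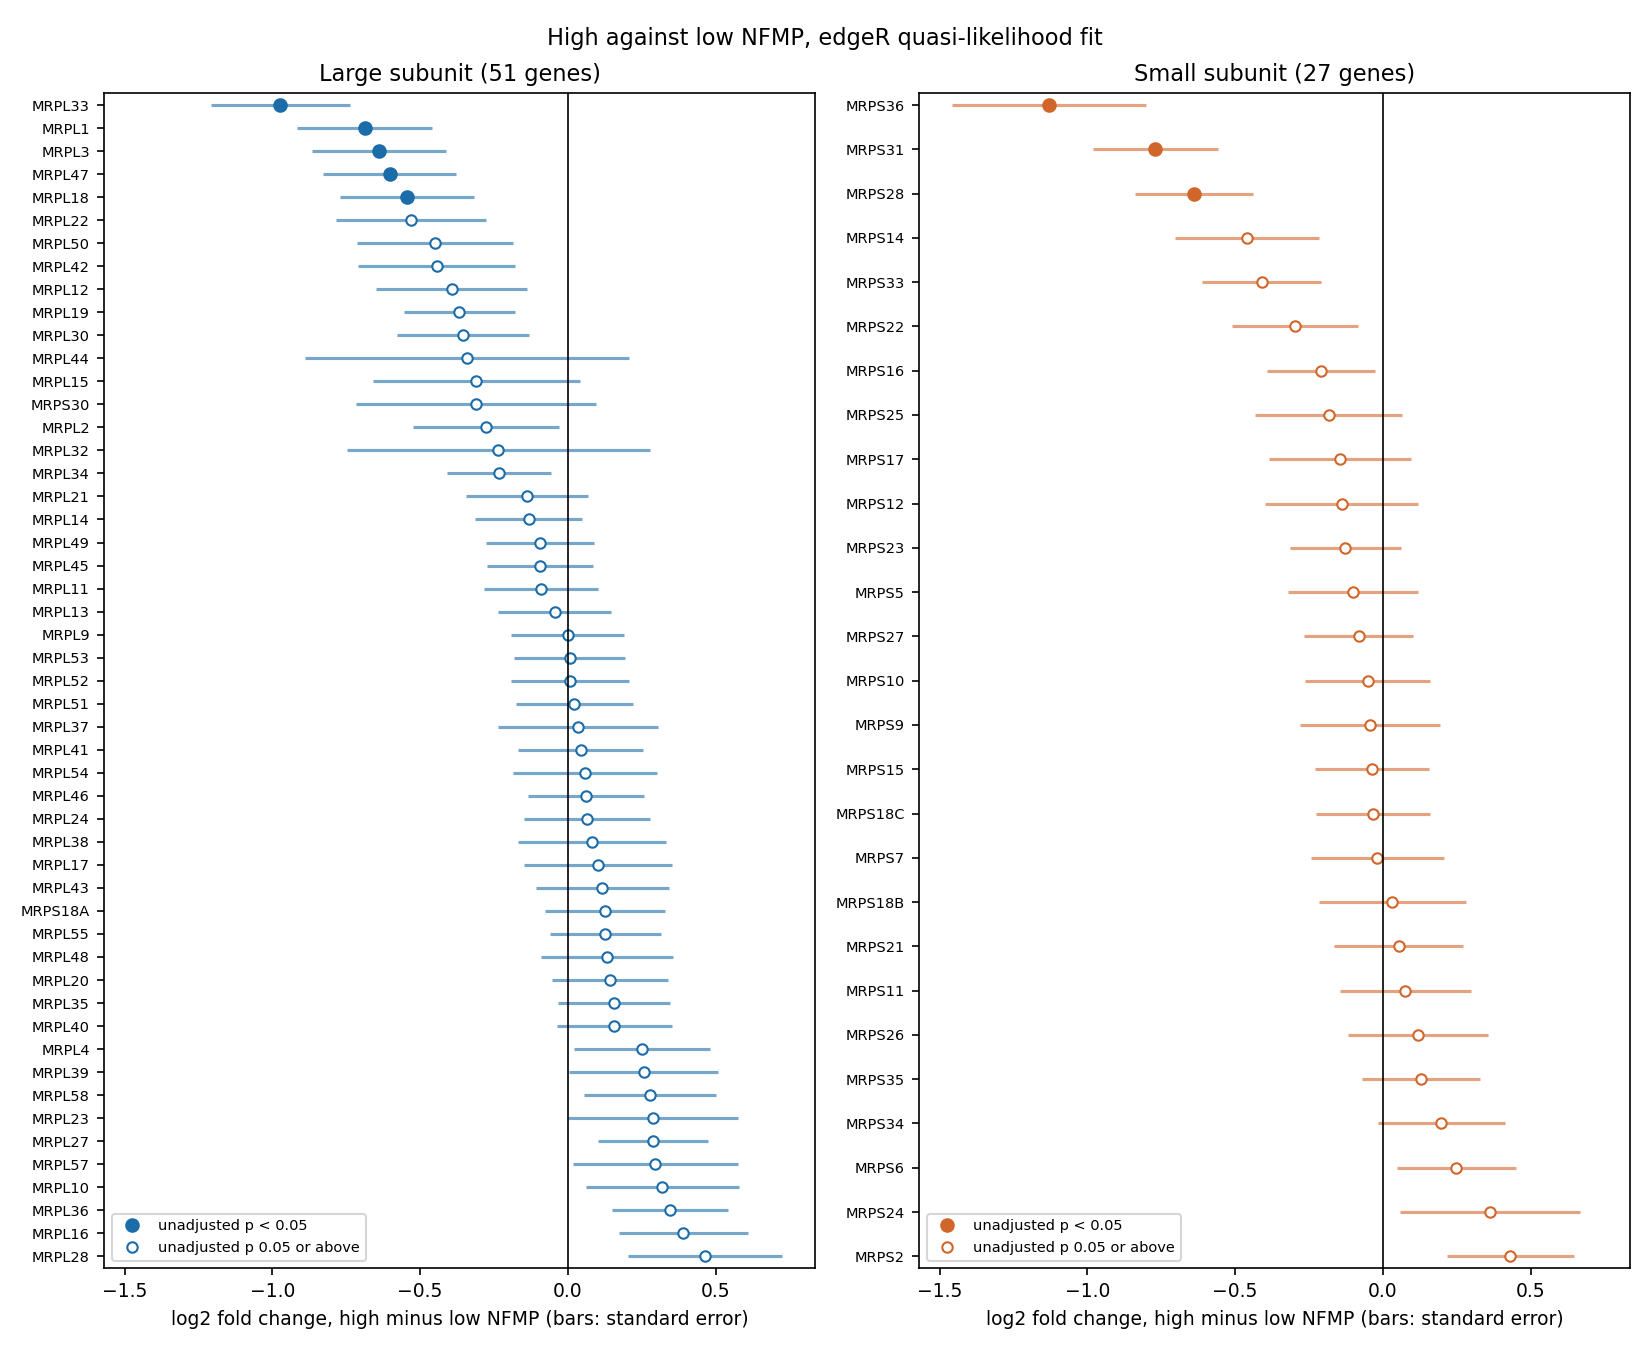
Log2 fold change of each member, high minus low NFMP, with its standard error (n = 3 steers per group), for the large and the small subunit. Filled points are the 8 members with an unadjusted p below 0.05, all of them below 0, and the rest lie on both sides of 0.

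Among the lower members of the large subunit, MRPL33, a small bacterial-type protein, had the smallest p. It had 332, 243 and 171.5 normalized counts in the high-NFMP steers and 527, 473 and 467 in the low-NFMP steers. Each high-NFMP steer lay well below each low-NFMP steer, with steer 10-9 lowest. The log2 fold change was -0.97 (standard error, SE, 0.23, unadjusted p = 0.000901, edgeR adjusted p = 0.0857). MRPL1 forms the mobile stalk at the side where transfer RNA leaves the ribosome. It had 219, 239 and 148 against 297, 328 and 352 normalized counts, a log2 fold change of -0.69 (SE 0.23, edgeR adjusted p = 0.245). Its groups did not overlap, and steer 10-9 was again lowest.

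MRPL3, whose bacterial counterpart reaches toward the site of peptide bond formation, had 247, 228 and 162.5 against 325, 386 and 282 normalized counts. Its log2 fold change was -0.64 (SE 0.23, edgeR adjusted p = 0.282), and its groups did not overlap. MRPL47, the counterpart of bacterial L29 beside the exit tunnel, was nearly constant in the high-NFMP steers. It had 170.2, 169 and 161.5 normalized counts there and 282, 197 and 281 in the low-NFMP steers, a log2 fold change of -0.60 (SE 0.23, edgeR adjusted p = 0.316). In the ARS-UCD2.0 gene table of RefSeq, MRPL47 overlaps ACTL6A, a chromatin remodelling gene, which was lower too, with a log2 fold change of -0.91 (edgeR adjusted p = 0.272). Whether the 2 genes shared reads was not tested. MRPL18, a protein of the central protuberance, had 438, 630.1 and 345 against 707, 769 and 582.5 normalized counts, so that steer 10-8 lay above steer 10-16. Its log2 fold change was -0.54 (SE 0.23, edgeR adjusted p = 0.376).

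Of the lower members of the small subunit, MRPS31, a mitochondria-specific protein of its head, separated the groups most evenly. It had 167, 183 and 142 normalized counts in the high-NFMP steers and 279, 278 and 284 in the low-NFMP steers. The low-NFMP steers were almost equal and all high-NFMP steers lay well below them, with a log2 fold change of -0.77 (SE 0.21, unadjusted p = 0.00254, edgeR adjusted p = 0.145). MRPS28, the counterpart of the bacterial protein S1, had 301, 398 and 346 against 627, 478 and 522 normalized counts. Its log2 fold change was -0.64 (SE 0.20, edgeR adjusted p = 0.212), and the groups did not overlap.

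MRPS36 had the largest fold change of the members. It had 257, 370.1 and 117 normalized counts in the high-NFMP steers and 483, 571 and 575.5 in the low-NFMP steers, a log2 fold change of -1.13 (SE 0.33, unadjusted p = 0.00516, edgeR adjusted p = 0.200). The value of steer 10-9 was far below the other 5, and without that steer the log2 fold change was -0.78. The catalytic subunits of the 2-oxoglutarate dehydrogenase complex, named here after their values were seen, did not pass the test. OGDH had 451 ± 59.7 normalized counts at high and 532 ± 64.7 at low NFMP (SD, n = 3 each), DLST had 91.3 ± 27.7 against 100.2 ± 13.9 and DLD had 932 ± 46.4 against 1074 ± 317. Their log2 fold changes were -0.24, -0.13 and -0.20 (adjusted p = 0.673, 0.896 and 0.749 by edgeR). Without MRPS36, 7 of 77 members were lower at an unadjusted p below 0.05 (9.09%, beside 5.74% of all tested genes), and none passed the fold change limit.

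**Figure D4:**
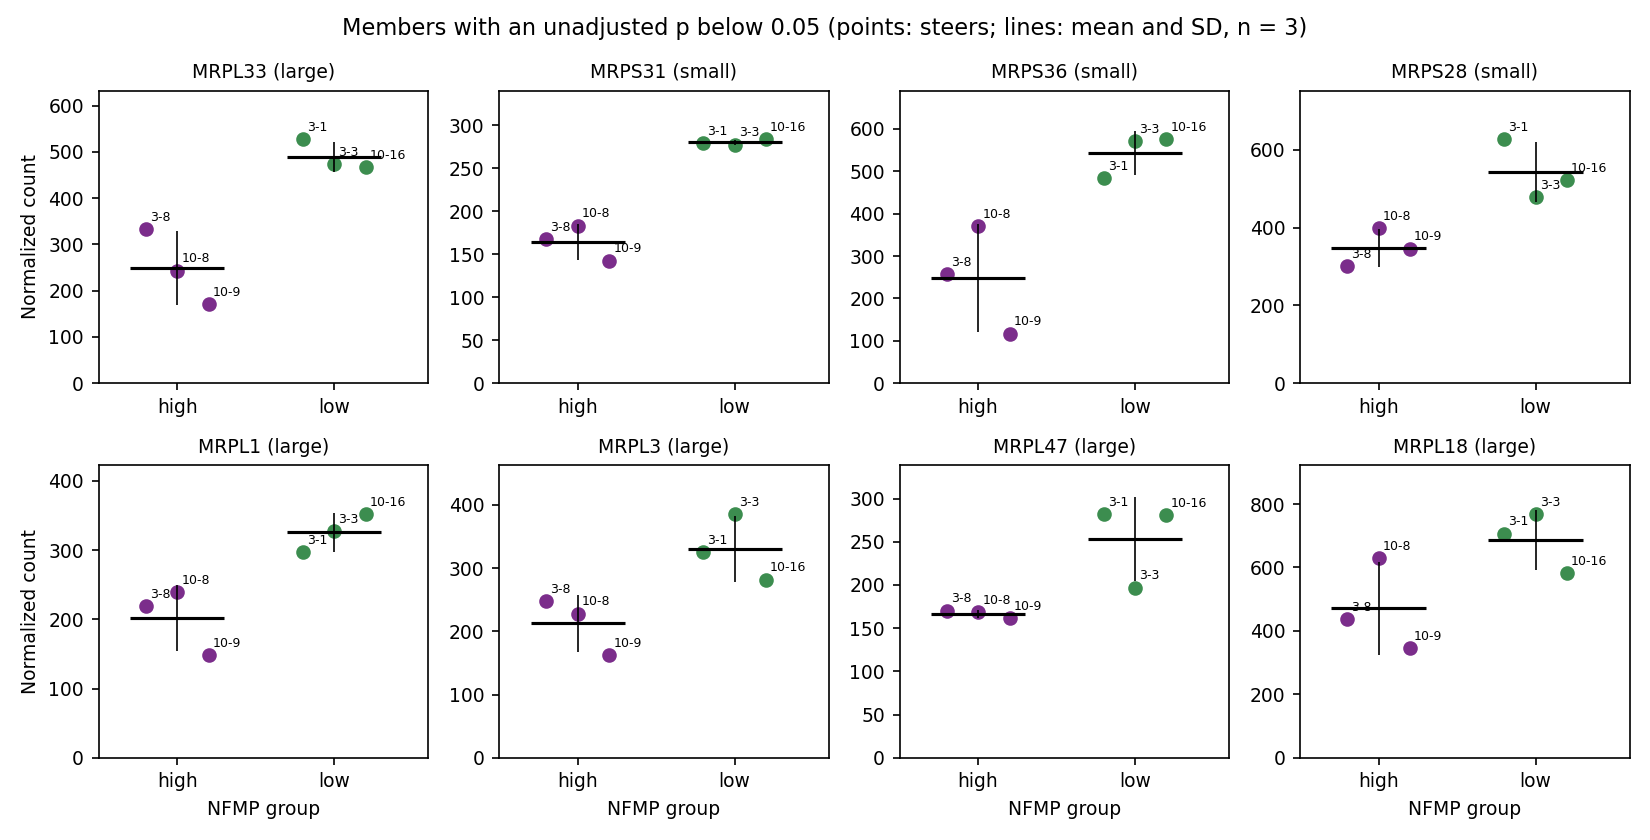
Normalized counts of the 8 members with an unadjusted p below 0.05, by steer, with the group mean and SD (n = 3), each axis starting at 0. The groups overlap for MRPL18, where steer 10-8 lies above steer 10-16, and do not overlap for the other 7, and steer 10-9 is the lowest of the 6 in 7 of the 8 panels.

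Of the 8 members, MRPL33, MRPS31, MRPS36, MRPL1 and MRPS28 kept an unadjusted p below 0.05 whichever steer was left out. With age as a term in the edgeR model, however, MRPS28 was at -0.43 with an unadjusted p of 0.108, MRPL47 was at -0.41 with 0.189, and MRPL18, with a larger difference than before, was at -0.61 with 0.0603. MRPL3 lost the unadjusted p below 0.05 without steer 10-9 or 3-3, MRPL47 without steer 3-1 or 10-16, and MRPL18 without steer 3-8, 10-9, 3-1 or 3-3. In those fits MRPL3 was at -0.46 and -0.52, MRPL47 at -0.52 and -0.49, and MRPL18 between -0.52 and -0.46, except without steer 10-9, where MRPL18 was at -0.34. What the first number of a steer label stands for is not stated. Among the steers whose label starts with 3 (1 high-NFMP, 2 low-NFMP), the log2 differences of the 8 members lay between -1.03 and -0.47, and among those whose label starts with 10 (2 high-NFMP, 1 low-NFMP) between -1.47 and -0.32. These values are a description, because the 8 were chosen as lower and the groups of 7 of them do not overlap.

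The members at the other end of the range did not pass the test with all 6 steers. MRPL28 had 97.3, 134.5 and 134.4 normalized counts in the high-NFMP steers and 84.2, 97.2 and 83.8 in the low-NFMP steers, and steers 3-8 and 3-3 were nearly equal. Its log2 fold change was 0.46 (SE 0.26, edgeR adjusted p = 0.531). MRPS2 was at 0.43 (SE 0.21, edgeR adjusted p = 0.469), with 351, 416 and 543 against 302, 293 and 376 normalized counts. MRPL16 was at 0.39, MRPS24, the counterpart of bacterial S3, at 0.36, MRPL36 at 0.35 and MRPS6 at 0.25. Of the abundant members, MRPL35 was at 0.15, MRPL53 at 0.01, MRPL55 at 0.13, MRPL21 at -0.14 and MRPL34 at -0.23, and in the small subunit MRPS16 was at -0.21, MRPS27 at -0.08, MRPS7 at -0.02, MRPS25 at -0.18 and MRPS35 at 0.13.

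Other members named for their role, family or low level did not pass the test. MRPL12, which forms the flexible stalk that recruits translation factors, had 104, 181 and 187.5 normalized counts against 217, 211 and 193, a log2 fold change of -0.39 (SE 0.26, edgeR adjusted p = 0.589). The groups did not overlap, with steer 3-8 farthest below. MRPS22, a mitochondria-specific small subunit protein, had 178, 197 and 188.5 against 249, 239 and 205, at a log2 fold change of -0.30 (SE 0.21, edgeR adjusted p = 0.633). MRPS12, which lies at the decoding site, was at -0.14 (standard error 0.26) with 141, 149 and 252 against 224, 180.4 and 193, and here steer 10-9 was the highest of the 6. MRPS34, another mitochondria-specific protein, was at 0.20 (standard error 0.22) and MRPS9 at -0.04 (standard error 0.24). MRPL44, MRPL32 and MRPS30, the 3 rarest members, were at -0.34, -0.24 and -0.31 with standard errors of 0.55, 0.51 and 0.41, each larger than the difference itself.

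Steer 3-8 was low in these genes. It was the lowest of the 6 steers in 39 of the 78 members, or 50.0%, whereas it was the lowest in 14.9% of all tested genes. It was the highest in 3 members, among them MRPS6 with 776 normalized counts. Relative to the mean of each gene over the steers, the median of the members was -0.25 on the log2 scale in steer 3-8 and lay between -0.01 and 0.13 in the other 5, and the median of all tested genes in steer 3-8 was 0.03. The large and small subunits had medians of -0.23 and -0.30. Several lists of related genes also had their lowest sum in steer 3-8. For cytosolic ribosomal proteins its summed normalized count was 333060.1, against 343518 to 454961 in the others. For mitochondrial ribosomal proteins under other symbols, assembly, translation factors and synthetases it was 803, 4986, 6105 and 2969. The next lowest steers had 953.5, 5089, 6513 and 3016, so the gap was small for assembly and synthetases. The mitochondrial-genome protein genes were not low in steer 3-8. Their sum there was 3030859, against 1945855 to 2623424 in the low-NFMP steers. Within the steers whose label starts with 3, which compares steer 3-8 alone with 3-1 and 3-3, the median log2 difference was -0.27 for the large and -0.30 for the small subunit. Within those whose label starts with 10 it was 0.03 and -0.09.

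The calls moved when steer 3-8 was left out. Then 7 members were lower (beside 8.29% of all tested genes) and 9 were higher (beside 6.97%), 16 in all, and 7 of the 8 members named above were among them. The 9 were MRPL28, MRPS2, MRPL16, MRPL36, MRPL10, MRPL58, MRPL4, MRPS24 and MRPL57, of which MRPL10, MRPL58, MRPL4 and MRPL57 are named after their values were seen. MRPL10 carries the stalk of MRPL12, and MRPL58 is a peptidyl-tRNA hydrolase that rescues stalled ribosomes. MRPL58 had 458, 726 and 859.5 normalized counts in steers 3-8, 10-8 and 10-9 and 511, 580.2 and 595 in the low-NFMP steers, so steer 3-8 was the lowest and the other high-NFMP steers were the highest. No member had an adjusted p below 0.05 in that fit. In the other fits that left out a steer, MRPS2 was higher without steer 10-16 (0.59, edgeR unadjusted p = 0.0382) and MRPS6 without steer 10-8 (0.44, edgeR unadjusted p = 0.0419).

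**Figure D5:**
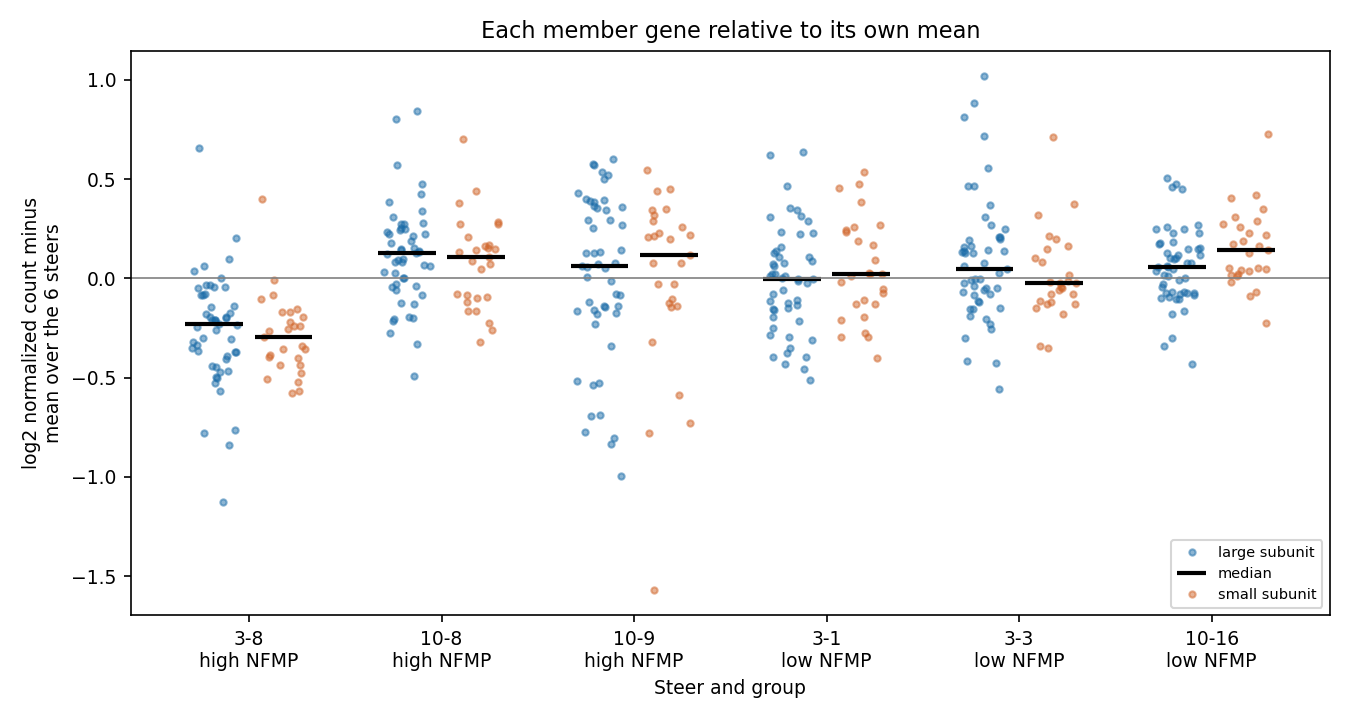
Each member's log2 normalized count minus its mean over the 6 steers, by steer and subunit, with the median as a bar. Steer 3-8 has medians of -0.23 (large) and -0.30 (small), the other 5 steers have medians between -0.03 and 0.14, and 13 members lie below -0.5 in steer 10-9 and 11 in steer 3-8.

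Steer 10-9 was the highest steer in 28 members (35.9%, beside 20.4% of all tested genes) and the lowest in 17 (21.8%, beside 20.7%), and 13 members were more than 0.5 below their mean on the log2 scale, among them MRPS36, MRPL33, MRPL1, MRPS25 and, chosen after its values were seen, MRPS14. MRPS14 had 453, 659 and 318 normalized counts in the high-NFMP steers and 556, 680.1 and 728 in the low-NFMP steers, and MRPS25 had 680.0, 888 and 412 against 803, 625 and 820. Steer 3-8 had 11 members that far below, steers 3-1 and 3-3 had 1 each, and steers 10-8 and 10-16 had none. The coefficient of variation between steers had a median over the members of 20.9% in the high-NFMP and 11.1% in the low-NFMP group, beside 18.5% and 13.1% over the 8568 tested genes whose mean was at least that of the lowest member above 100.

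The other genes of mitochondrial translation were taken from lists. Mitochondrial ribosomal proteins under other symbols (DAP3, CHCHD1, AURKAIP1, PTCD3 and GADD45GIP1) did not pass the test, with log2 fold changes between -0.28 and 0.37. Of 26 tested genes for ribosome assembly, 2 were higher and 1 was lower at an unadjusted p below 0.05, with a median of -0.05. These are 7.69% and 3.85%, near the 5.73% higher and 5.74% lower of all tested genes. DHX30, an RNA helicase of mitochondrial RNA granules, had 379, 297 and 410.2 normalized counts against 229.7, 198 and 202, a log2 fold change of 0.79 (SE 0.21, edgeR adjusted p = 0.128). DDX28, a helicase needed for large subunit assembly, was at 0.78 (adjusted p = 0.383 by edgeR) with overlapping groups, and it was not past the unadjusted p with the label number as a term, with quantile normalization, or without steer 10-8, 10-9, 3-1 or 3-3. Its log2 fold change in those fits lay between 0.55 and 0.79. MTERF3, a regulator of mitochondrial transcription that also takes part in ribosome assembly, was at -0.78 (adjusted p = 0.251 by edgeR).

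Of the 14 tested translation factors, only TSFM, the elongation factor that recycles TUFM, was past that p, at a log2 fold change of -0.66 (SE 0.25, edgeR adjusted p = 0.317), with 231, 343 and 169.5 against 435, 402 and 338 normalized counts. TSFM alone is 7.14% of that list, near the 5.74% of all tested genes that were lower. The list had a median of -0.23, and 12 of the 14 lay below 0 (85.7%, beside 48.1% of all tested genes). Of the 19 tested mitochondrial aminoacyl-tRNA synthetases, only IARS2 was past that p (5.26%, beside the same 5.74%). IARS2 was at -0.55 (SE 0.22, edgeR adjusted p = 0.356), and the synthetases had a median of -0.04. TSFM was not past that p with age as a term or without steer 3-8, 10-9 or 3-1, and IARS2 was not with quantile normalization or without steer 10-9, 3-3 or 10-16. In those fits TSFM lay between -0.63 and -0.43 and IARS2 between -0.57 and -0.33, with the smallest difference of both without steer 10-9. In TSFM and IARS2 steer 10-9 was the lowest, as in 7 of the 8 lower members.

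The 13 protein genes of the mitochondrial genome, which the mitochondrial ribosome translates, all lay above 0, with a median of 0.44. ND3, ND5 and ATP6 were higher at an unadjusted p below 0.05 (23.1% of the 13, beside 5.73% of all tested genes). They were at 0.66, 0.48 and 0.59 (adjusted p = 0.340, 0.402 and 0.407 by edgeR). With quantile normalization and limma none of the 3 was past that p, at 0.38, 0.33 and 0.22, and with age as a term ND5 and ATP6 were not. Each also lost it without steer 10-8 or 3-3, ND3 without 10-16, ND5 without 3-8 or 3-1, and ATP6 without 3-1. In the fits that lost the call, ND3 lay between 0.38 and 0.63, ND5 between 0.33 and 0.44 and ATP6 between 0.22 and 0.54. For each count on a ribosomal protein gene there were 97.6, 94.1 and 74.1 counts on these 13 genes in the high-NFMP steers and 67.4, 54.5 and 68.1 in the low-NFMP steers, and these ranges did not overlap. Among the 78 cytosolic ribosomal protein genes, 2 were higher at that p (2.56%, beside 5.73% of all tested genes) and none was lower (beside 5.74%). Their median was 0.17, and 10 lay below 0 (12.8%, beside 48.1% of all tested genes).

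Marker genes of the cell types in LT were counted in the same libraries. All 10 markers of muscle fibres were detected in each steer, and none passed the test, with a median log2 fold change of 0.22. Their summed level ran from 1710906 to 2069937 normalized counts in the high-NFMP and from 1727520 to 2138387 in the low-NFMP steers. The slow fibre list had a median of 0.05, with 1 of 8 lower, which was MYL3 (12.5%, beside 5.74% of all tested genes). In the fast fibre list the median was 0.08, with none of 8 past the test. Both lists had overlapping sums. Of the 10 adipocyte markers, 5 were higher at an unadjusted p below 0.05 (50%, beside 5.73% of all tested genes). All 10 lay above 0, with a median of 0.62, and for 3 the groups did not overlap. In FABP4, LEP and LPL this sign rested on steer 3-8. FABP4 had 4945, 1618 and 1019 against 1617, 2044 and 1294 normalized counts, and LEP 194, 47.8 and 52.2 against 63.2, 75.9 and 73.7. LPL had 781, 606 and 545 against 669, 627 and 556. The sum of the 10 adipocyte markers was 16160.3, 10308 and 6839 in the high-NFMP steers and 7349, 8222 and 7194 in the low-NFMP steers. Steer 3-8 thus had the highest adipocyte sum, the lowest muscle fibre sum and the lowest sum of ribosomal protein genes, and their part in the member results was not tested. Of 8 fibroblast markers 1 was lower (12.5%, beside 5.74% of all tested genes). Of 8 endothelial markers 2 were higher, and of 6 tested immune cell markers 1 was higher (25% and 16.7%, beside 5.73%). No list had a marker at 0 in every steer.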

How the data were processed

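RNA sequencing counts of LT from 6 steers, 3 per group by their labels, were analysed. The authors deposited raw read counts per gene symbol from a Lexogen 3′ mRNA kit, with no normalization. Their methods name Tophat2 and HTSeq in one place and Bowtie2 with unique and multiple alignments in another, and the submitters' processing notes name Bowtie2 and bedtools. Which of these made the counts, and whether strand was used, was not given in the sources used here, and overlapping or near-identical genes may share reads.

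In R 4.3.3, the filter of edgeR 4.0.16 (minimum count 10, minimum total 15) kept 15039 rows and at least 99.85% of the counts of a library. TMM factors lay between 0.915 and 1.083. The quasi-likelihood test with robust dispersions was run on all rows, with Benjamini-Hochberg adjustment over all of them. Standard errors were derived from the log2 fold change and the F statistic. The study's threshold (p below 0.05, more than 2-fold) was kept beside the unadjusted and the adjusted p alone. Its p was taken here before adjustment, because the paper names no adjustment. P-values set the difference between the groups against a spread between steers that is in part shared across genes. The counts carry no molecular identifiers, so reads can repeat a molecule. The procedure was tested on simulated counts.

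The members and lists were chosen with earlier results of these data known. Named were members past the unadjusted p, those highest or lowest in level or fold change in each subunit, 10 members set by their role or family, and genes of the related lists past that p. Alternatives were other scalings (RLE, library totals, quantile normalization with limma 3.58.1), DESeq2 1.42.0, other filters, repeated symbols summed, the steer age or the label number in the model, and leaving out 1 steer at a time. No protein sequences or transcript lengths were used here. Overlaps between genes were read from RefSeq (ARS-UCD2.0), where all 78 members were found and 23 overlapped another gene. The paper names another bovine assembly for its mapping, so these overlaps need not hold for the gene models that were counted.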

Additional observations from a re-analysis of the deposited data

How the results depend on the processing

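The number of members with an unadjusted p below 0.05 was between 6 and 16 with each steer left out, and 16 without steer 3-8. It was 8 with RLE size factors, with at least 10 counts in every library, with the label number as a term, with repeated symbols summed and with DESeq2, 7 with age as a term and with quantile normalization and limma, 10 without a filter and 12 with library totals alone, and all of these members were lower. Of all tested genes, 4.24% were lower with age as a term, 4.49% with the label number, 4.94% without a filter, 5.78% with quantile normalization, 5.6% with DESeq2 and 5.75% in the remaining fits with all steers other than library totals, and from 3.77% to 8.29% with each steer left out. Library totals alone put 7% of all tested genes lower and 4% higher, where TMM put 5.74% and 5.73%. Members at an adjusted p below 0.05 were 1 without a filter (MRPL33, beside 240 of 23015 genes) and 2 with DESeq2 (MRPL33 and MRPS36, beside 287 of 15039), and none in the other fits. With age as a term, MRPS28, MRPL47 and MRPL18 were no longer past the unadjusted p, whereas MRPL50 and MRPL42 were. The label number as a term added MRPS33. Without a filter MRPL22 and MRPS14 were added, and with library totals alone MRPL19 and MRPS33 as well. With the label number as a term and with quantile normalization, the p of MRPL18 rose to 0.0669 and 0.0846, at log2 fold changes of -0.51 and -0.55. None of the 8 members changed sign in any fit. That was almost fixed in advance, because the 8 were chosen as lower and only MRPL18 has overlapping groups.

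The median log2 fold change lay between -0.09 and 0.09 for the large and between -0.16 and 0.06 for the small subunit with each steer left out. It was -0.09 and -0.16 with the label number as a term and -0.07 and -0.11 with library totals alone, where the reported medians are 0.01 and -0.05. Library totals alone moved the median of all tested genes from 0.02 to -0.05. The log2 difference in the ratio of the subunits lay between 0.07 and 0.12 with each steer left out, and was 0.09 with the subunits taken by symbol alone. Over all genes, 969 passed the study's threshold without a filter and 364 with at least 10 counts in every library, against 586. The ratio per residue of protein was not run, because no protein lengths were used here. No paired analysis was possible because no steer label occurs in both groups. Its first number, which several steers share, could only be fitted as a term. The 3 members under 100 normalized counts had standard errors from 0.41 to 0.55, larger than their differences, and counting error was not separated from the spread between steers.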
